A study of Mus musculus with 9 samples.

Results

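The genes described here build and run the mitotic spindle and the kinetochores. By name, 43 of them were chosen as mitosis genes, with earlier results of these data known. Of these, 42 had a probe set with a single gene symbol, among 18193 such genes on the array. Ccnb1, a mitotic cyclin, had no such probe set in the annotation used here. Where a gene had several probe sets, the one with the highest average over the 9 arrays stood for it. Of the 42, 41 were tested, because their highest group mean reached 6.58, the median of the whole table in log2 signal. Kif15, a spindle kinesin, lay under that line in all groups.

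RNA came from 3 kinds of mouse cells, with 3 biological replicates and 3 arrays of each. The CiCM samples, cardiomyocyte-like cells induced by chemicals alone, started as mouse embryonic fibroblasts that were given a cocktail of 10 µM CHIR99021, 10 µM RepSox, 50 µM Forskolin, 0.5 mM VPA, 5 µM Parnate and 1 µM TTNPB, and their beating clusters were picked on day 24. Cardiomyocytes (CM) came straight from mouse hearts, whose strain and age the labels do not give. Mouse embryonic fibroblasts (MEF), the starting cells, were isolated from C57BL/6 embryos on embryonic day 13.5. The labels name no time in culture for MEF, and no MEF kept without the cocktail to the day of picking was analysed here, so time in culture and treatment cannot be told apart. All values below are log2 signals, so that a difference of 1 is a doubling. Precision is limited by the 3 arrays in each group, and p-values measure the spread between them.

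The group labels were set against marker genes. The cardiomyocyte markers summed to a linear signal of 766 to 1219 in CiCM, 199397 to 233873 in CM and 173 to 255 in MEF (7 genes). CiCM was called above MEF in 4 of the 7, where 11.6% of all tested genes were called higher. Myl3, a heart myosin light chain, was at 9.0, 8.87 and 7.96 in CiCM, 15.23, 15.73 and 15.69 in CM, and 3.62, 4.98 and 3.20 in MEF. Myh6, the heart myosin heavy chain, was at 6.75, 8.0 and 6.64 in CiCM and 15.41, 15.94 and 15.79 in CM, against 3.04 and 4.75 and a value listed at 0 in MEF. Tnni3, the heart troponin I, and Pln, a calcium pump inhibitor, were the others (2.72 ± 0.70 and 1.25 ± 0.34, SE), and their CiCM and MEF arrays did not overlap. With 32 added to each linear signal, Tnni3 was at 1.05 and the call of Pln was lost (0.84). Nppa, Ryr2 and Nkx2-5 were not called (1.95 ± 0.83, 0.13 ± 0.37 and 0.16 ± 0.30, SE). Skeletal muscle markers summed to 94558 to 102886 in CiCM (7 genes), against 2146 to 13688 in CM and 87 to 137 in MEF. Each of them was called higher in CiCM than in MEF and in CM, where 11.6 and 16.5% of all tested genes were. Myog was at 12.73, 12.61 and 12.43 in CiCM, 4.08, 2.22 and 5.37 in CM, and 0.63, 5.29 and 6.18 in MEF. Striated muscle markers summed to 67548 to 76060 in CiCM, 137949 to 210241 in CM and 352 to 506 in MEF (5 genes). Fibroblast markers summed to 89282 to 96737 in CiCM, 33640 to 45041 in CM and 74212 to 78204 in MEF (7 genes). They did not move as a set. Against MEF, Dcn and Lum were called higher in CiCM (1.46 and 2.84) and in CM (1.92 and 3.08), and Thy1 lower in both (-1.76 and -4.19). Col1a1, Col1a2, Col3a1 and Pdgfra were called lower than MEF in CM only. The CiCM label is kept below as the name of the samples. In mixed samples such as these, fewer dividing cells and less mitotic RNA per cell cannot be told apart.

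A dividing cell attaches each chromosome to spindle microtubules through its kinetochores, waits at a checkpoint until all are attached, and then destroys cyclins and securin to separate the sister chromatids and divide. Most genes of this machinery are silent in resting cells and switched on late in the cycle. In resting cells the DREAM complex, which holds Rbl2 or Rbl1, E2f4 and the Lin proteins, represses them through a promoter element called the CHR. In cycling cells Mybl2 with the same Lin proteins, Foxm1 and the CCAAT-binding factor NF-Y activate them. Heart muscle cells of mice leave the cycle soon after birth, skeletal muscle cells have left it by the time they fuse, and embryonic fibroblasts divide in culture.

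Promoters of 6 of the genes are shown because the genes moved together and because Cenpf, Cenpa and Mki67 later stand apart. RefSeq windows of 250 bases before to 50 bases after the start site were matched for 37 of the 43 genes (build GRCm38.p6). The 150 bases before the start site are printed 5′ to 3′ on the gene's strand, with capitals for a CHR (TTTGAA, either strand) or a CCAAT box (CCAAT, either strand). Ube2c lies at chr2:164769779-164769928, plus strand, Cdk1 at chr10:69352913-69353062, minus strand, and Top2a at chr11:99024190-99024339, minus strand. Cenpf lies at chr1:189688087-189688236, minus strand, Cenpa at chr5:30666736-30666885, plus strand, and Mki67 at chr7:135716380-135716529, minus strand.
Ube2c: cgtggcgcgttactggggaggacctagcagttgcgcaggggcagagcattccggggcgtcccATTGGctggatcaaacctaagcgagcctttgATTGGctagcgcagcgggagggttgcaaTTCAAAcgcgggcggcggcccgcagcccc
Cdk1: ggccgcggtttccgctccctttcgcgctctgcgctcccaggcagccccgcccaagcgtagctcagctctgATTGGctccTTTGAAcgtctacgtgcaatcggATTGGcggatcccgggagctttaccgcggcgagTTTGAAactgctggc
Top2a: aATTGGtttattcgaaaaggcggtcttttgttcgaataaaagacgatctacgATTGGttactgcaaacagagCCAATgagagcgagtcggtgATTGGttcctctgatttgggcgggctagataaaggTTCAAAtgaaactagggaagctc
Cenpf: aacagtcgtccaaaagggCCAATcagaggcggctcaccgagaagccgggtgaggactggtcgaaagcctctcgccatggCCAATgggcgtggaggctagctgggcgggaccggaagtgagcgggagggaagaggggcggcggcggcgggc
Cenpa: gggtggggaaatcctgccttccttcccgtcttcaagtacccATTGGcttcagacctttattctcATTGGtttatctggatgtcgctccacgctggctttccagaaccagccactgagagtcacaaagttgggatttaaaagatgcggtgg
Mki67: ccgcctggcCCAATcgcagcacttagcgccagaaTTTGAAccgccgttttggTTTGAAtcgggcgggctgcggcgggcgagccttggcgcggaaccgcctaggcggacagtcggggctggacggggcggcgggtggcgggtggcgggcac
Counting from the start site, the CHR of Ube2c began at -29, and the nearest ones of Top2a and Cdk1 began at -23 and -15. The only CHR in the window of Cenpf began at 3 and that of Cenpa at 17, outside the part printed. Mki67 had a pair, at -116 and -98.

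Across the 37 genes with a window, 28 (75.7%) held a CHR, against 20.2% of 27025 genes with a window. A CCAAT box was present in 27 (73.0%), against 41.1% of all genes, and both motifs stood in the same window in 23 (62.2%), against 7.97%. A CHR that began within 50 bases of the start site was found in 26 (70.3%), against 5.72%. In 1 window of these genes the motifs overlapped. All 6 kinesins with a window held a CHR, as did all 4 cytokinesis genes. Among 114 genes of other mitosis lists 41.2% held a CHR, and among 12 core subunits of the anaphase-promoting complex 2 did. These matches describe letters in a window and are not binding sites.

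**Figure D1:**
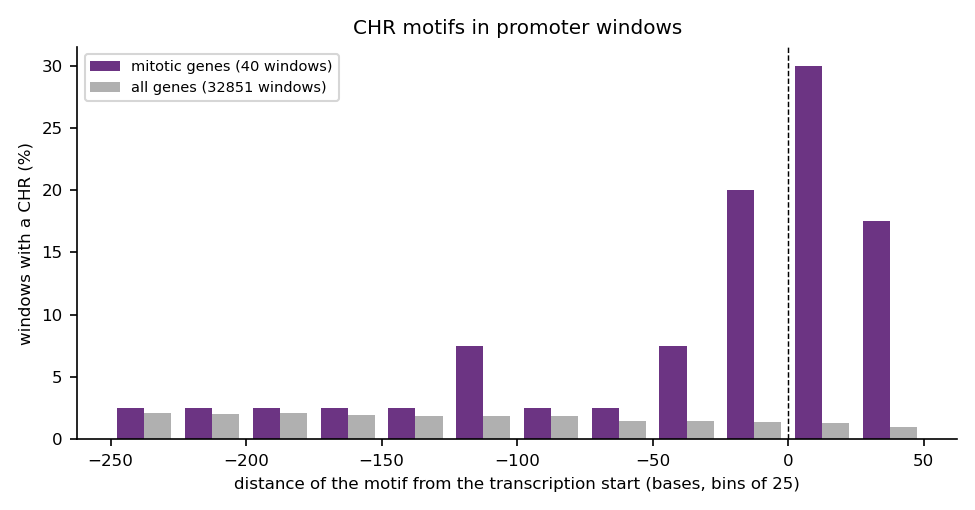
Share of promoter windows (vertical axis, percent) with a CHR beginning in each 25-base bin of distance from the transcription start (horizontal axis, bases), for 40 windows of the mitotic genes and 32851 windows of all genes. The bins from 25 bases before to 50 bases after the start hold a CHR in 20.0, 30.0 and 17.5% of the mitotic windows, against 1.38, 1.31 and 0.971% of all windows.

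Mitotic gene signals were low in CiCM, somewhat higher in CM and high in MEF. The median over the 42 genes was 6.38, 6.11 and 6.11 on the CiCM arrays, 6.88, 6.92 and 7.42 on the CM arrays, and 10.20, 10.15 and 10.15 on the MEF arrays. Signals at or above the median of the table were seen for 17, 16 and 15 genes in CiCM, 26, 22 and 31 in CM, and 41 on each MEF array. Of the 41 tested genes, 16 passed the filter through their MEF mean alone. MEF had the highest group mean in 40, and CM in 1, Cenpf. The median SD of these genes over 3 arrays was 0.40 in CiCM, 0.43 in CM and 0.07 in MEF, and signals below the median of the table are noisy.

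**Figure D2:**
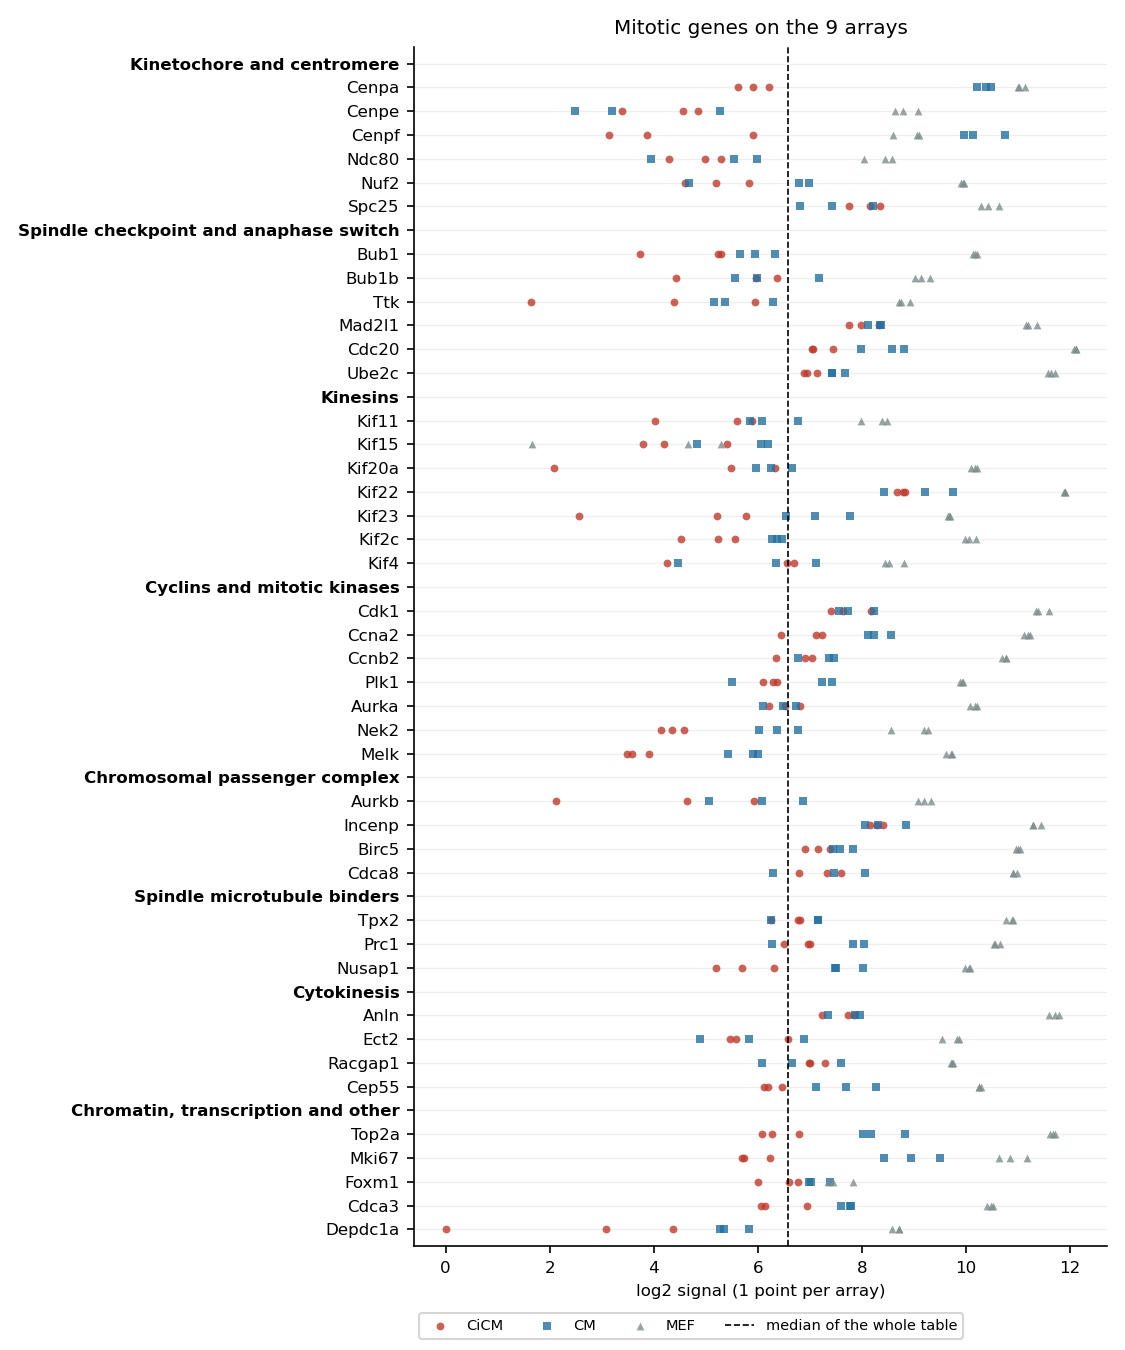
Log2 signal (horizontal axis) of 42 mitotic genes, by role, on each of 3 CiCM, 3 CM and 3 MEF arrays (1 point per array); the dashed line is the median of the table, 6.58. MEF points lie to the right of CiCM points in every gene but Kif15, and Cenpf is the tested gene with its CM points to the right of MEF.

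The first comparison asked how far mitotic expression had gone down in the induced cells relative to the fibroblasts they came from. A gene was called where the adjusted p was below 0.05 and the log2 difference reached 1. All 41 tested genes were called lower in CiCM, with a median difference of -4.10, while the median of all 12559 tested genes was -0.03. The same rule called 12.2% of all genes lower and 11.6% higher. Because a gene high only in MEF had to differ once it passed the filter, the count was repeated without a filter: 41 of 42 (97.6%) were lower, against 8.76% of all genes. The exception was Kif15, at 4.19, 5.40 and 3.79 in CiCM, 4.84, 6.06 and 6.19 in CM, and 5.29, 1.66 and 4.66 in MEF, where the groups overlap. With 32 added to each linear signal, which damps noise at low signals, 40 of 41 were lower (median -3.43), against 11.2% of all genes.

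In CM the same rule called 38 of the 41 tested genes below MEF and 0 above it (limma; at an unadjusted p below 0.05 Cenpf alone was above), with a median difference of -3.19, against a median of -0.03 over all tested genes. The background was 21.8% lower and 22.1% higher. Without the filter 38 of 42 (90.5%) were lower, against 15.7% of all genes, and with 32 added 38 of 41 were, against 20.4%. The genes not called were Cenpa, Cenpf and Foxm1.

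CiCM lay below CM in the mean of 36 of the 41 genes, yet 15 were called lower and 0 higher (limma; 0 also at an unadjusted p below 0.05; median -0.67, against -0.03 over all tested genes). These signs depend on the scaling. Of the 41, 5 changed sign under quantile normalization, 8 with centring on array medians and 14 with levelling on hybridisation controls. The background was 19.0% lower and 16.5% higher. Without the filter 15 of 42 (35.7%) were lower, against 14.2% of all genes, and with 32 added 11 of 41 (26.8%) were, against 17.8%. The 3 comparisons share arrays, so each is described by its own values.

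**Figure D3:**
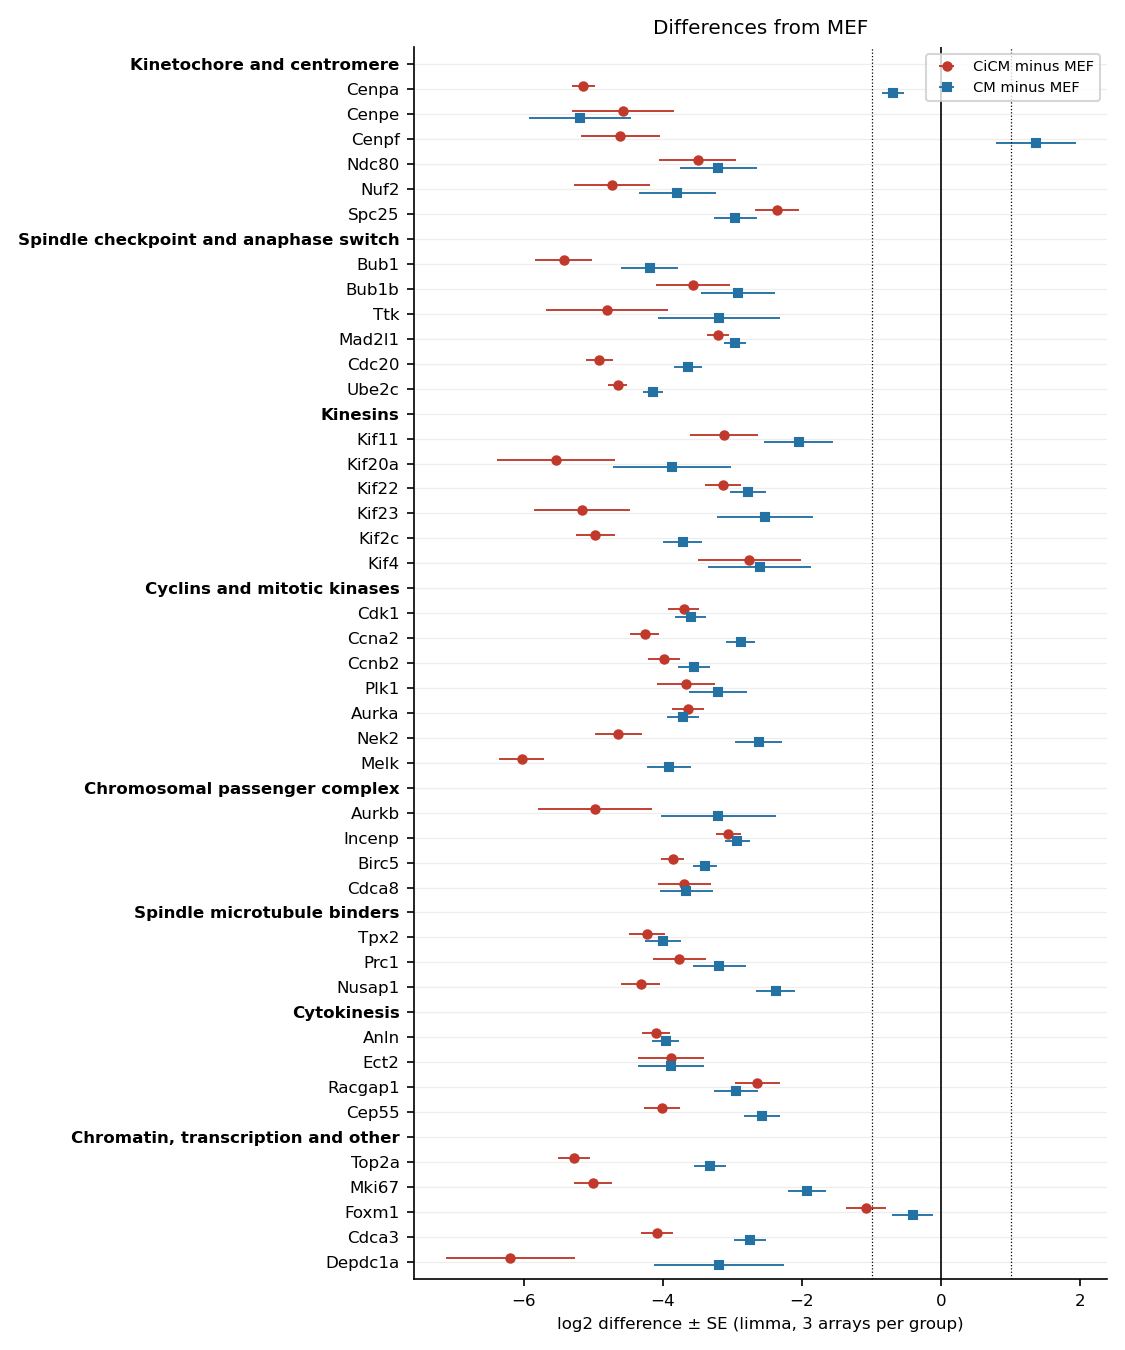
Log2 differences from MEF (horizontal axis) of the 41 tested genes, by role, with the standard error of the limma fit, for CiCM and for CM; dotted lines mark a difference of 1 in either direction. CiCM differences run from -6.19 for Depdc1a to -1.08 for Foxm1, and CM differences from -5.19 for Cenpe to 1.36 for Cenpf.

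At the kinetochore, CiCM lay below MEF in all 6 genes and CM in 4. Cenpa (Entrez Gene 12615), the histone variant that marks the centromere, was at 6.22, 5.91 and 5.62 in CiCM, 10.49, 10.39 and 10.22 in CM, and 11.13, 11.01 and 11.03 in MEF. The CM arrays were thus close to MEF and far from CiCM, and no groups overlapped. The difference was -5.14 ± 0.16 for CiCM against MEF (SE; limma adjusted p = 2.89e-09), -0.69 ± 0.16 for CM against MEF (adjusted p = 0.00251, under the minimum difference), and -4.45 ± 0.16 for CiCM against CM (adjusted p = 8.1e-09). A second probe set of Cenpa was at 4.95, 5.94 and 6.05 in CiCM, 8.38, 7.92 and 8.01 in CM, and 7.59, 7.60 and 7.87 in MEF. There CiCM was again below CM (-2.46 ± 0.32, SE), and CM lay above MEF by 0.42, which was not called.

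Cenpf (Entrez Gene 108000), a large protein of the outer kinetochore and nuclear matrix, was at 5.91, 3.88 and 3.14 in CiCM, 9.96, 10.13 and 10.75 in CM, and 9.11, 8.60 and 9.06 in MEF. Every CM array lay above every MEF array, and every CiCM array lay below both. CiCM differed from MEF by -4.61 ± 0.57 and from CM by -5.97 ± 0.57 (SE; limma adjusted p = 7.06e-05 and 6.4e-06), while CM differed from MEF by 1.36 ± 0.57 (adjusted p = 0.0536). With 32 added the CM difference from MEF was 1.30 and was called (adjusted p = 0.00219). A second probe set of Cenpf was at 4.71, 5.81 and 5.43 in CiCM, 7.01, 6.45 and 7.47 in CM, and 5.11, 6.32 and 6.11 in MEF. There CiCM was called lower than CM (-1.66 ± 0.50) but not lower than MEF (-0.53 ± 0.50).

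On their main probe sets the other kinetochore genes did not share that pattern. Ndc80, Nuf2 and Spc25 belong to the complex that grips microtubules, and Cenpe is a kinetochore motor. Spc25 was at 8.36, 7.75 and 8.16 in CiCM, 8.22, 6.82 and 7.42 in CM, and 10.29, 10.43 and 10.63 in MEF. CiCM and CM overlapped, and both lay below MEF, by -2.36 ± 0.31 and -2.96 ± 0.31 (SE; limma adjusted p = 0.000102 and 7.75e-06). A second probe set of Spc25 was at 5.77, 6.16 and 5.47 in CiCM, 6.48, 7.03 and 6.92 in CM, and 5.88, 6.26 and 6.33 in MEF. There every CM array lay above MEF and CiCM, which overlapped, and no difference was called (CiCM against CM -1.01 ± 0.38, SE). Ndc80, Nuf2 and Cenpe differed from MEF by -3.50, -4.73 and -4.57 in CiCM and by -3.20, -3.79 and -5.19 in CM, and their CiCM and CM arrays overlapped.

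The spindle checkpoint and the switch into anaphase were lower in both CiCM and CM, with 6 of 6 genes called in each. Ube2c (Entrez Gene 68612), the ubiquitin-conjugating enzyme of the anaphase-promoting complex, was at 7.14, 6.89 and 6.95 in CiCM, 7.42, 7.42 and 7.68 in CM, and 11.71, 11.64 and 11.59 in MEF. CiCM and CM both lay far below MEF, at -4.65 ± 0.14 and -4.14 ± 0.14 (SE; limma adjusted p = 2.44e-09 and 1.74e-09). Their arrays did not overlap, and CiCM differed from CM by -0.51 ± 0.14 (SE; limma adjusted p = 0.00697), under the minimum difference. Cdc20, which activates that complex at anaphase, was at 7.45, 7.05 and 7.06 in CiCM, 8.59, 7.99 and 8.82 in CM, and 12.11, 12.09 and 12.11 in MEF. No groups of Cdc20 overlapped on this probe set, and CiCM lay below CM by 2.42-fold (-1.28 ± 0.20, SE; limma adjusted p = 0.000252). Further probe sets gave -0.81 ± 0.20 and -0.93 ± 0.71 (SE) and were not called. Levelling the arrays on hybridisation controls ended the call of the main one (-0.70).

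Bub1, a checkpoint kinase, was at 5.24, 5.30 and 3.74 in CiCM, 5.95, 6.34 and 5.66 in CM, and 10.22, 10.18 and 10.13 in MEF. CiCM was lower than MEF by -5.42 ± 0.41 and CM by -4.19 ± 0.41 (SE; limma adjusted p = 1.85e-06 and 4.64e-06). The call of Bub1 against CM (-1.22) was lost with 32 added (-0.65), and without CiCM replicate 3 (-0.71) or CM replicate 2 (-1.04). Bub1b, Ttk and Mad2l1, the other checkpoint genes, were lower than MEF by -3.57, -4.80 and -3.21 in CiCM and by -2.92, -3.19 and -2.96 in CM. For these 3 the CiCM and CM arrays overlapped on the main probe sets, and in Ttk, the kinase known as Mps1, CiCM itself ran over 1.64, 4.39 and 5.95. On a further probe set of Bub1b the CiCM and CM arrays did not overlap, and CiCM was called lower than CM (-2.59 ± 0.75, SE).

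Of the 7 kinesins, the motors that build the spindle and move chromosomes, 6 were tested and all 6 were lower in CiCM and in CM than in MEF. Kif22, a chromosome-arm motor, was at 8.83, 8.80 and 8.67 in CiCM, 8.43, 9.21 and 9.75 in CM, and 11.90, 11.89 and 11.90 in MEF. Its CiCM arrays fell within the range of CM, and the differences from MEF were -3.13 ± 0.26 in CiCM and -2.77 ± 0.26 in CM (SE; limma adjusted p = 3.5e-06 and 3.19e-06). Kif23, a motor of the central spindle, was at 5.21, 2.57 and 5.77 in CiCM, 7.10, 6.55 and 7.78 in CM, and 9.67, 9.65 and 9.70 in MEF, with no overlap between groups. Its CiCM value was below CM by -2.63 ± 0.69 (SE; limma adjusted p = 0.00659), or -1.52 with 32 added. Averaging its probe sets ended that call (-1.63).

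Kif20a, which acts in cytokinesis, was at 2.09, 6.34 and 5.49 in CiCM, 6.25, 5.97 and 6.66 in CM, and 10.22, 10.11 and 10.17 in MEF. The wide CiCM spread put its difference from CM (-1.66 ± 0.85, SE) outside the call (limma adjusted p = 0.109). Kif2c, which takes microtubules apart at kinetochores, was lower than MEF by -4.97 ± 0.28 in CiCM and -3.71 ± 0.28 in CM. Its call in CiCM against CM (-1.26) was lost with 32 added (-0.77) and without CiCM replicate 1 (-0.96). Kif11, which pushes the spindle poles apart, and Kif4, a chromokinesin, differed from MEF by -3.12 and -2.76 in CiCM and by -2.05 and -2.61 in CM. In CiCM against CM, Kif11 was at -1.07 ± 0.49 and not called. Its further probe sets gave -1.68 ± 0.60, which was called, and 0.18 ± 0.62 (SE).

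Of the 8 cyclin and mitotic kinase genes, the 7 tested were lower in both CiCM and CM than in MEF. Cdk1 (Entrez Gene 12534), the kinase that starts mitosis, was at 7.64, 8.18 and 7.41 in CiCM, 7.74, 8.23 and 7.56 in CM, and 11.60, 11.38 and 11.36 in MEF. The CiCM and CM arrays overlapped far below MEF, with differences of -3.70 ± 0.22 and -3.60 ± 0.22 (SE; limma adjusted p = 3.58e-07 and 1.32e-07). Between CiCM and CM the difference was -0.10 ± 0.22. Ccnb2, a partner cyclin, and the kinases Plk1 and Aurka had differences between CiCM and CM of -0.44 ± 0.23, -0.46 ± 0.42 and 0.07 ± 0.23 (SE), and their arrays overlapped.

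Ccna2, the cyclin of S phase and early mitosis, was at 6.44, 7.12 and 7.23 in CiCM, 8.23, 8.13 and 8.57 in CM, and 11.20, 11.12 and 11.24 in MEF. The groups did not overlap on this probe set, and CiCM lay 2.60-fold below CM (-1.38 ± 0.21, SE; limma adjusted p = 0.000186). On a second probe set of Ccna2 the difference was -0.66 ± 0.21 (SE) and was not called. Levelling the arrays on hybridisation controls ended the call of the main one (-0.81). Melk, a kinase of cycling cells, was at 3.58, 3.91 and 3.49 in CiCM, 5.91, 5.42 and 6.01 in CM, and 9.74, 9.62 and 9.71 in MEF. Nek2, a centrosome kinase, was at 4.36, 4.15 and 4.59 in CiCM, 6.78, 6.02 and 6.38 in CM, and 9.27, 8.57 and 9.20 in MEF. Both were called lower in CiCM than in CM (-2.12 ± 0.32 and -2.02 ± 0.34, SE), but with 32 added Melk was at -0.97, under the minimum difference, and Nek2 at -1.14. A second probe set of Nek2 gave -0.17 ± 0.50 (SE) and was not called.

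The chromosomal passenger complex corrects wrong attachments and guides cleavage. Its 4 genes were lower in CiCM and in CM than in MEF, and none was called between CiCM and CM. Incenp, the scaffold, was at 8.30, 8.40 and 8.15 in CiCM, 8.31, 8.07 and 8.85 in CM, and 11.29, 11.45 and 11.29 in MEF. Its CiCM and CM arrays overlapped, and the differences from MEF were -3.06 ± 0.18 and -2.93 ± 0.18 (SE; limma adjusted p = 3.56e-07 and 1.44e-07). Birc5 (survivin) and Cdca8 (borealin) differed from MEF by -3.86 and -3.69 in CiCM and by -3.39 and -3.66 in CM. Aurkb, the kinase of the complex, ran over 5.92, 4.65 and 2.12 in CiCM, 6.09, 5.06 and 6.87 in CM, and 9.19, 9.33 and 9.08 in MEF.

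Spindle microtubule binders and cytokinesis genes, 3 and 4 in number, were lower in CiCM and in CM than in MEF without exception. Nusap1, which bundles spindle microtubules near chromosomes, was at 5.19, 5.69 and 6.32 in CiCM, 7.48, 7.51 and 8.02 in CM, and 10.07, 9.99 and 10.09 in MEF. Cep55, which gathers the machinery of the final cut between daughter cells, was at 6.19, 6.47 and 6.12 in CiCM, 7.13, 7.69 and 8.27 in CM, and 10.26, 10.29 and 10.26 in MEF. In both genes no groups overlapped, and CiCM was called lower than CM, by -1.94 ± 0.28 and -1.43 ± 0.26 (SE; limma adjusted p = 0.000134 and 0.000643). Averaging probe sets ended both calls (-1.07 and -0.54), and levelling the arrays on hybridisation controls ended that of Cep55 (-0.86). A second probe set of Cep55 gave 0.36 ± 0.83 (SE). Tpx2, a spindle assembly factor, and Prc1, which crosslinks the midzone, had overlapping CiCM and CM arrays. So did Anln, Ect2 and Racgap1, which organise the contractile ring.

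Anln gives the clearest case of that overlap. It was at 7.85, 7.73 and 7.23 in CiCM, 7.96, 7.36 and 7.88 in CM, and 11.79, 11.71 and 11.60 in MEF. Its differences from MEF were -4.10 ± 0.20 in CiCM and -3.96 ± 0.20 in CM (SE; limma adjusted p = 8.24e-08 and 3.27e-08), and CiCM differed from CM by -0.13 ± 0.20.

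Among the chromatin and other genes, Mki67 (Entrez Gene 17345), the proliferation antigen that coats mitotic chromosomes, was at 5.74, 5.70 and 6.24 in CiCM, 8.42, 8.95 and 9.50 in CM, and 11.18, 10.63 and 10.86 in MEF. The groups formed 3 separate bands. CiCM was lower than MEF by -5.0 ± 0.27 and than CM by -3.06 ± 0.27, and CM was lower than MEF by -1.93 ± 0.27 (SE; limma adjusted p = 1.89e-07, 3.7e-06 and 8.36e-05). Top2a (Entrez Gene 21973), the topoisomerase that untangles chromosomes, was at 6.79, 6.09 and 6.27 in CiCM, 8.18, 8.02 and 8.84 in CM, and 11.71, 11.68 and 11.61 in MEF. Its groups did not overlap either, and CiCM was below CM by -1.96 ± 0.23 (SE; limma adjusted p = 3.16e-05). A second probe set of Top2a gave -0.75 ± 0.39 (SE) and was not called, and averaging probe sets ended the call (-0.96).

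Cdca3, a trigger of mitotic entry, followed the same order, with CiCM below MEF by -4.09 ± 0.23, CM below MEF by -2.74 ± 0.23 and CiCM below CM by -1.35 ± 0.23 (SE). Levelling the arrays on hybridisation controls (-0.77) and averaging probe sets (-0.80) each ended its call in CiCM against CM. Depdc1a was at 4.37 and 3.08 and listed at 0.00 in CiCM, against 5.28, 5.35 and 5.83 in CM and 8.59, 8.72 and 8.72 in MEF. Its fitted difference from MEF, -6.19, was -3.42 with 32 added, and its call in CiCM against CM was lost (-0.90).

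Foxm1 (Entrez Gene 14235), the transcription factor that switches on mitotic genes, gave different answers by probe set. Its main probe set was at 6.78, 6.61 and 6.01 in CiCM, 6.98, 7.03 and 7.39 in CM, and 7.45, 7.36 and 7.83 in MEF. These are small steps, with CiCM lower than MEF by -1.08 ± 0.29 (SE; limma adjusted p = 0.00903) and CM by -0.41 ± 0.29 (adjusted p = 0.217). The CiCM call was lost with 32 added (-0.86), without CiCM replicate 3 (-0.85) and without MEF replicate 3 (-0.94). Another probe set was at 2.56, 2.88 and 2.64 in CiCM, 2.79, 2.57 and 3.60 in CM, and 7.76, 7.62 and 7.27 in MEF. There both groups lay far below MEF, by -4.85 ± 0.64 in CiCM and -4.56 ± 0.64 in CM. A further probe set was at 2.46, 5.69 and 3.08 in CiCM, 5.84, 6.53 and 6.43 in CM, and 7.07, 6.89 and 7.26 in MEF. On that one CiCM was called below both MEF (-3.33 ± 0.73) and CM (-2.52 ± 0.73), while CM was not called against MEF (-0.81 ± 0.73, SE).

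Further probe sets that reached the filter mostly had the sign of the main one against MEF. A probe set high only in MEF had to be lower elsewhere once it passed, so the filter helped set this agreement. Probe sets under the filter were not counted. Their signs in CiCM against MEF went both ways, as in Foxm1 (1.02 ± 1.03), Nek2 (0.90 ± 1.26) and Ttk (-3.68 ± 0.97, SE). That of Nek2 was called higher in CM than in MEF (3.34 ± 1.26, SE). Of 31 further probe sets of these genes at or above the filter, 31 had the sign of the main one in CiCM against MEF and 29 in CM against MEF. In CiCM against CM 23 did, and 5 were called lower, so that comparison rests more on the choice of probe set.

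**Figure D4:**
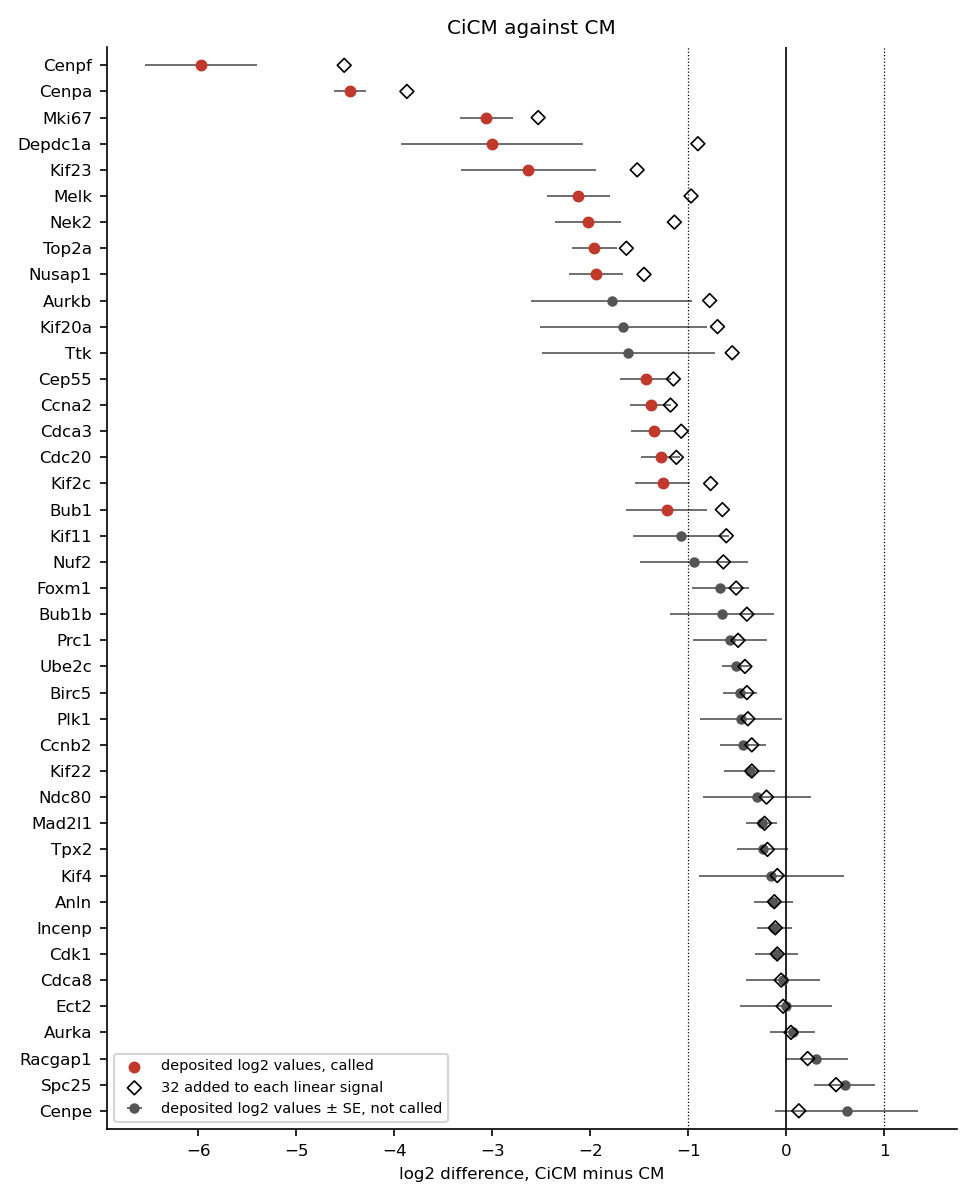
Log2 difference of CiCM from CM (horizontal axis) for the 41 tested genes, ordered by size, from deposited values with the standard error (filled; red when called) and with 32 added to each linear signal (open diamonds); dotted lines mark a difference of 1 in either direction. Cenpf, Cenpa and Mki67 keep the largest differences on both scales, and Depdc1a shrinks from -3.00 to -0.90.

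Cenpa, Cenpf and Mki67 were the only 3 of the 15 genes called lower in CiCM than in CM that kept the call in all 22 alternatives tried. Not all of these could end a call. Dropping the minimum difference only loosens the rule. Mki67 has a single probe set, so averaging probe sets left it at -3.06, while Cenpa and Cenpf moved to -2.00 and -2.47. Levelling the arrays on 18 hybridisation controls put the median of all tested genes at 0.55 in this comparison, -0.26 in CiCM against MEF and -0.84 in CM against MEF, and centring on array medians put it at 0.28 between CiCM and CM and -0.40 between CM and MEF. Under the levelling, Cenpf, Cenpa and Mki67 differed between CiCM and CM by -5.40, -3.87 and -2.49. There 9 of the 41 genes were lower, where 1357 of 12543 of all tested genes were. Of the 41, 14 changed sign, and Spc25 was called higher (1.18). No sign changed in CiCM against MEF or in CM against MEF under any scaling.

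Markers of other cells moved with the groups. Macrophage markers were called lower in CiCM than in MEF in 8 of 8, against 12.2% of all tested genes. They summed to a linear signal of 1398 to 1764 in CiCM, 8885 to 10804 in CM and 11020 to 11558 in MEF, with no gene listed at 0. Endothelial markers were called lower in CiCM than in CM in 5 of 5, against 19.0% of all tested genes. Their sums were 177 to 222 in CiCM, 10526 to 11482 in CM and 423 to 669 in MEF. The part of these other cells in the mitotic signals of MEF and CM was not tested.

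**Figure D5:**
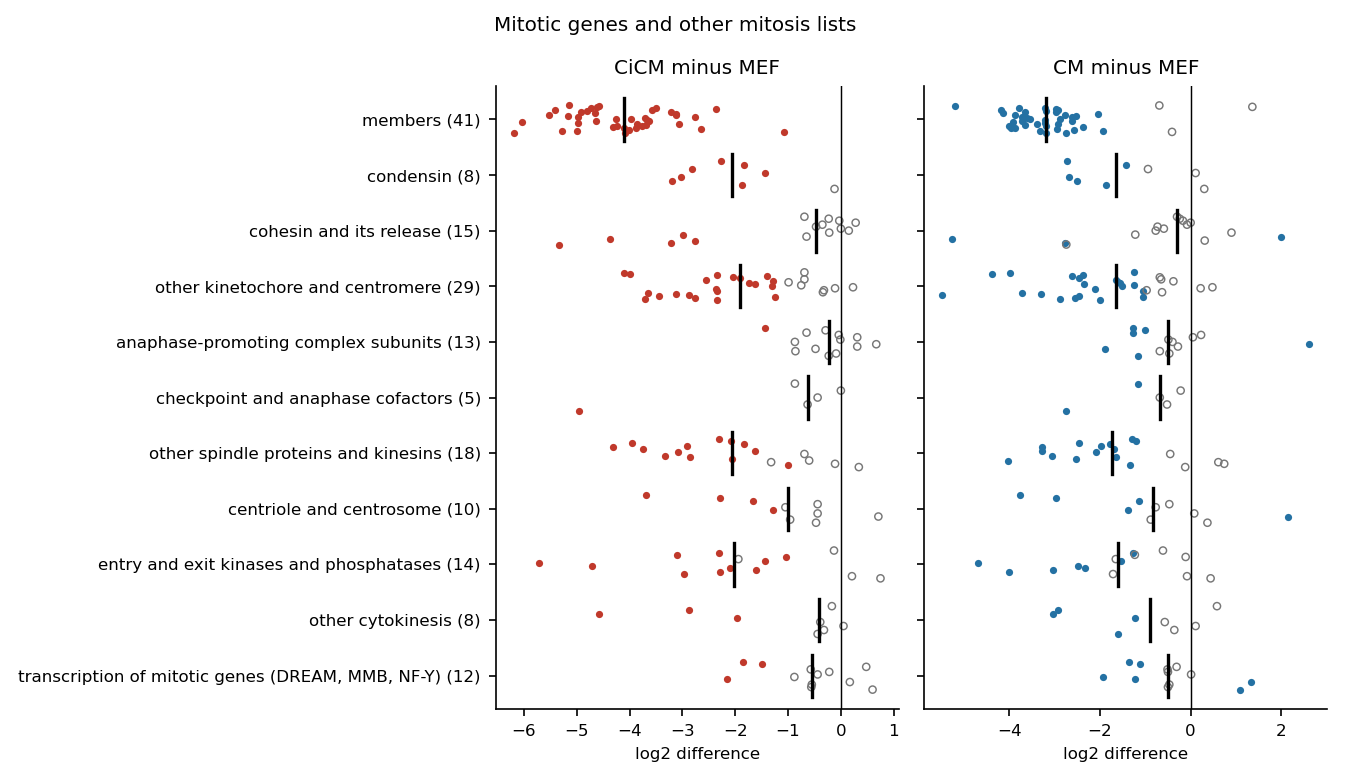
Log2 difference from MEF (horizontal axis) of the 41 mitotic genes and of each gene in 10 other mitosis lists, for CiCM and for CM, with the number tested in brackets; filled points were called, open points were not, and the black bar is the list median. The 13 subunits of the anaphase-promoting complex center near 0, with medians of -0.23 in CiCM and -0.49 in CM.

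Other mitosis genes, in 10 lists chosen by function, had smaller median differences from MEF. Of 132 tested, CiCM was called below MEF in 68 and above it in 0 (median -1.28), where 12.2% of all tested genes were called lower and 11.6% higher. CM was called below MEF in 69 and above it in 5 (median -1.21), where the shares of all tested genes were 21.8 and 22.1%. Between CiCM and CM 18 were lower and 9 higher (median -0.14), smaller shares than the 19.0 and 16.5% of all tested genes, so these counts are not a result about the lists. The same shares are the background for the count of each list below.

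Condensin, which compacts chromosomes, was lower in CiCM than in MEF for 7 of 8 genes (median -2.07), among them Ncapg2 (-3.19 ± 0.17), Ncapg (-3.02 ± 0.32), Ncapd2 (-2.82 ± 0.20) and Smc2 (-2.27 ± 0.11, SE). In CM 5 of 8 were lower. Ncapd3, a subunit of condensin II named after its values were seen, was at 8.16, 7.84 and 8.03 in CiCM, 9.70, 9.55 and 9.42 in CM, and 9.38, 9.41 and 9.55 in MEF, so that CM and MEF overlapped above CiCM.

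Of 15 genes of cohesin, the ring that holds sister chromatids together, and its release, 5 were called lower in CiCM than in MEF and 10 were not called. The core subunits Smc1a, Smc3, Rad21, Stag1 and Stag2 differed by -0.69, -0.23, -0.03, 0.28 and -0.35. Among those called, Esco2, which acetylates cohesin, was listed at 0.00 on 1 CiCM array and was at 1.39 and 4.57 on the others, 5.66, 4.0 and 4.11 in CM, and 7.75, 7.15 and 7.09 in MEF. Sgo1, a protector of cohesin, differed by -4.37 ± 0.71, Cdca5, which encodes sororin, by -3.21 ± 0.21, and Espl1, the separase that cuts cohesin, by -2.98 ± 0.75 (SE), or -1.97 with 32 added. Sgo2a, a further protector named after its values were seen, was at 6.12, 5.91 and 5.50 in CiCM, 8.49, 9.24 and 8.98 in CM, and 8.93, 8.44 and 8.43 in MEF, again with CM and MEF overlapping above CiCM.

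Pttg1, the securin that holds separase back, was at 11.31, 11.44 and 11.45 in CiCM, 13.87, 14.23 and 14.04 in CM, and 12.09, 12.05 and 12.02 in MEF. CM was thus higher than MEF by 1.99 ± 0.10 (SE; limma adjusted p = 2.57e-08), and CiCM was below both.

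Of the anaphase-promoting complex, which marks cyclins and securin for destruction, 12 of 13 core subunits were not called in CiCM against MEF (median -0.23). Its conjugating enzyme Ube2c and its activator Cdc20, described above, were called. Only Anapc1 was lower (-1.44 ± 0.12, SE), and that value turned to 0.15 when its probe sets were averaged. In CM 5 subunits were lower and Anapc13 was higher by 2.61 ± 0.12 (SE; limma adjusted p = 1.67e-08), at 12.85, 13.21 and 13.02 in CM, 11.07, 10.90 and 11.28 in CiCM, and 10.44, 10.33 and 10.48 in MEF. Between CiCM and CM, Anapc13 was lower (-1.95 ± 0.12) and Cdc16 higher (1.40 ± 0.11, SE). The inhibitor Fbxo5 was the 1 called gene of 5 checkpoint and anaphase cofactors in CiCM against MEF (-4.96 ± 0.67, SE).

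Other kinetochore genes were lower in 21 of 29 in CiCM and 22 of 29 in CM. Cenph (-4.10 ± 0.70), Cenpi (-3.99 ± 0.66), Oip5 (-3.71 ± 0.86, or -2.09 with 32 added) and Zwilch (-3.65 ± 0.26, SE) led in CiCM. Between CiCM and CM, Spdl1, which brings dynein to kinetochores, and Cenpl were called higher (2.60 ± 0.47 and 1.22 ± 0.44, SE), and Spdl1 was at 1.22 with 32 added. The call of Cenpl was lost without CiCM replicate 1 (0.90), CiCM replicate 3 (1.29), CM replicate 3 (0.80) or MEF replicate 2 (1.22), and its difference was 0.76 with 32 added. Cenpm and Spc24 were called lower (-1.35 ± 0.24 and -1.29 ± 0.23, SE). The call of Cenpm was lost with 32 added (-0.99) and with levelling on the controls (-0.78), and that of Spc24 with centring (-0.98) and levelling (-0.71).

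Among other spindle proteins, 13 of 18 were lower in CiCM and 14 of 18 in CM, led in CiCM by Hmmr (-4.32 ± 0.22), Kif20b (-3.96 ± 0.73), Dlgap5 (-3.75 ± 0.47) and Tacc3 (-3.32 ± 0.30, SE). Gtse1, which binds microtubule tips, went the other way between CiCM and CM, at 7.98, 8.22 and 8.02 in CiCM, 3.71, 5.53 and 4.68 in CM, and 8.58, 8.72 and 8.72 in MEF. It was 10.8-fold higher in CiCM than in CM (3.43 ± 0.39, SE; limma adjusted p = 2.33e-05). Ckap2, another microtubule binder, was higher too (1.65 ± 0.18).

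Kinases and phosphatases of entry and exit were lower in CiCM than in MEF for 10 of 14 genes, among them Haspin (-5.71 ± 1.20), Pbk (-4.72 ± 0.23), Cdc25c (-3.10 ± 0.51) and Ccnf (-2.97 ± 0.75, SE). With 32 added these were at -2.63 for Haspin, -4.10 for Pbk, -1.90 for Cdc25c and -1.97 for Ccnf, so Pbk was then the lowest of the 4. Cks1b and Cks2, small partners of cyclin-dependent kinases, were lower in CiCM than in MEF yet higher than in CM, by 1.44 ± 0.10 and 1.73 ± 0.13 (SE). Cks2 was at 10.39, 10.35 and 10.24 in CiCM, 8.56, 8.33 and 8.88 in CM, and 12.61, 12.55 and 12.63 in MEF, with no overlap.

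Centrosome genes were lower in 4 of 10 in CiCM, against 12.2% of all tested genes, and in 4 of 10 in CM, against 21.8%. Plk4, the kinase that starts centriole duplication, was lower in CiCM by -3.68 ± 0.24, Stil by -2.29 ± 0.32, Sass6 by -1.66 ± 0.20 and Cep192 by -1.28 ± 0.20 (SE). Averaging the probe sets of Cep192 ended its call (-0.49). Pcnt, a scaffold of the centrosome that muscle cells place at the nuclear envelope, was higher in CM than in MEF (2.14 ± 0.13, SE), at 10.28, 9.94 and 10.20 in CM, 8.66, 8.69 and 8.80 in CiCM, and 8.04, 7.92 and 8.05 in MEF. Of 8 other cytokinesis genes, Shcbp1 (-4.58 ± 0.36), Arhgap11a (-2.88 ± 0.21) and Iqgap3 (-1.96 ± 0.21) were lower in CiCM than in MEF, while between CiCM and CM Pdcd6ip was higher (1.16 ± 0.13) and Shcbp1 lower (-1.55 ± 0.36, SE). Averaging probe sets ended the calls of Iqgap3 (-0.38) and Pdcd6ip (0.66), and levelling on the controls ended that of Shcbp1 against CM (-0.97).

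The regulators that switch mitotic genes on and off had a median difference from MEF of -0.56 in CiCM and -0.50 in CM. Of 12 tested genes of DREAM, the Mybl2 complex and NF-Y, 3 were lower in CiCM than in MEF, where 12.2% of all tested genes were. These were Rbl1 (-2.16 ± 0.16), Mybl2 (-1.86 ± 0.45) and Lin9 (-1.50 ± 0.23, SE). In CM 4 were lower and 2 higher than in MEF, against 21.8 and 22.1% of all tested genes, so the 2 higher genes are no more than the background share. The same 3 and Tfdp1 (-1.93 ± 0.10) were lower in CM than in MEF, with Rbl1 at -1.22, Mybl2 at -1.36 and Lin9 at -1.11. The CM call of Lin9 was lost without MEF replicate 1 (-0.94) and with 32 added (-0.96), and that of Mybl2 with probe sets averaged (-0.96) and without CM replicate 2 (-0.98), MEF replicate 1 or MEF replicate 3 (-1.31 each). Between CiCM and CM, Tfdp1 was called higher (1.06) and Rbl2 lower (-1.15); the call of Tfdp1 was lost without CM replicate 2 (0.96) and with quantile normalization (0.99), and that of Rbl2 with centring (-0.85) and levelling (-0.58). Rbl2, the DREAM pocket protein of resting cells, was at 8.87, 9.14 and 8.87 in CiCM, 10.33, 10.03 and 9.99 in CM, and 8.83, 8.80 and 8.75 in MEF. It was higher in CM than in MEF (1.32 ± 0.13, SE; limma adjusted p = 5.48e-06) and differed by 0.17 in CiCM. Nfyc, the third NF-Y subunit, was higher in CM by 1.09 ± 0.16 (SE), and both calls were lost when the arrays were levelled on the controls (0.52 for Rbl2 and 0.29 for Nfyc) or centred (0.95 and 0.73). That of Nfyc was also lost without CM replicate 1 (0.98). Lin37, Lin54, Rbbp4, E2f4, Nfya and Nfyb were not called against MEF in CiCM or CM, and Lin52 was under the filter.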

How the data were processed

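Values are log2 signals of 45101 probe sets on 9 one-colour Affymetrix arrays, deposited by the authors as a single table; MAS5 is named, with no version, per the submitters' processing notes. The log2 scale was read from the values: after 2 to the power of each, each array's trimmed mean (2% off either end) came to 500.003. Detection calls, scan dates and batches were not analysed here, so whether any batch runs with the groups was not tested.

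GEO's platform annotation gave 34945 probe sets 1 gene symbol. Each gene took its probe set with the highest mean. Genes whose highest group mean was under 6.58 were left out, leaving 12559. Differences were tested with limma 3.58.1 in R 4.3.3 (lmFit, eBayes with a variance trend, 2-sided), 1 fit of 9 arrays, with Benjamini-Hochberg adjustment over all genes tested. With 3 arrays a group, an exact permutation p is at least 0.1. Replicate numbers did not pair the samples (correlations of deviations -0.0156 to 0.0668). The fit of CiCM against MEF was tested on simulated data. Promoters are from RefSeq; the authors' genome build is not given in the sources used here.

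Named were all 43 genes, up to 4 called genes of each other list by size, called genes against their list's direction, and the transcription list. Members and lists were chosen with earlier results of these data known. Alternatives are given in the closing section. Figures were drawn with matplotlib 3.10.9.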

Additional observations from a re-analysis of the deposited data

How the results depend on the processing

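In CiCM against MEF, 40 of the 41 calls held in every alternative in which the gene was tested. In CM against MEF 36 of 38 did, Nusap1 and Cdca3 being lost when probe sets were averaged (-0.87 and -0.27), and in CiCM against CM 3 of 15 did. Not every alternative tested all 41 genes: a filter at the 75th percentile left 34, and averaging probe sets left 39. The count of genes called higher in CM than in MEF was 0 on the deposited values and 1, Cenpf, with 32 or a larger constant added, with only the 2 groups compared, and with array weights; leaving out 1 replicate gave 0 to 1. The count called lower in CiCM than in CM was 4 of 41 with the larger constant added. All genes gave 1645 of 12634 there, a larger share. With levelling on the hybridisation controls it was 9 of 41, against 1357 of 12543 of all genes. Levelling also gave 1 called higher, against 4076 of all genes. With probe sets averaged the count called lower was 10 of 39, against 2165 of 11642, and leaving out 1 replicate gave 15 to 16. Leaving out CM replicate 2 added Nuf2 (-1.68) and Prc1 (-1.12), and leaving out CM replicate 1 added Plk1 (-1.07), CiCM replicate 1 Aurkb (-2.62), CiCM replicate 2 Kif20a (-2.51), and CiCM replicate 3 Ttk (-2.59) and Kif11 (-1.43). Anapc1 in CiCM against MEF turned to 0.15 when its probe sets were averaged. Centring and levelling moved Cenpa in CM against MEF to -1.06 and -1.49, past the minimum difference. The fits with the replicate block gave 41, 38 and 15 genes called lower in CiCM against MEF, CM against MEF and CiCM against CM, the same as without it. The larger constant also ended the calls of Cdc25c, Sass6, Lin9 and Mybl2 in CiCM against MEF, of Lin9, Mybl2 and Rbl1 in CM against MEF, and of Spdl1, Cenpl, Cenpm, Spc24, Shcbp1, Rbl2 and Tfdp1 in CiCM against CM. The cause of these shifts was not tested. Signals under the median of the table limit the order of the lowest values in CiCM.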
